A study of Mus musculus with 27 samples.

Results

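RNA of 6 lens crystallin genes (Cryaa, Cryab, Cryba1, Cryba2, Crybb1 and Crygs) and 4 genes of pigment cells (Tyr, Tyrp1, Dct and Pmel) was measured in the fetal brain of 3 mouse strains. The 10 genes were taken by symbol from a table of read counts with 55416 genes, and all 10 were found there. RNA-seq had been done on the whole brain of female fetuses on gestational days 12, 15 and 17 (d12, d15 and d17), counted from the day of the vaginal plug as day 1. There were 3 libraries for every strain on every day, 27 in all, and each held 26363697 to 39759702 counted reads. The strains were AKR/J, an inbred strain, C57BL/6J, an inbred strain that served as the comparison, and B6.Cg-Cav1tm1Mls/J (Cav1-null), which is congenic to C57BL/6J and lacks a working Cav1 gene in every cell. No animal was treated, and the dams were about 8 weeks old when timed pregnancies were set up. The methods call the 3 samples of a group biological replicates but do not say which fetuses shared a litter. Cav1 itself was at 0 to 0.551 CPM (read counts scaled to the total of the library) in the Cav1-null libraries, at 10.7 to 43.0 CPM in C57BL/6J and at 6.36 to 38.0 CPM in AKR/J, as the labels have it.

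Crystallins are the proteins that fill the fiber cells of the lens and give it transparency and refractive power. The alpha crystallins are small heat shock proteins that act as chaperones, and Cryab among them is also made in muscle, heart and glia, while the beta and gamma crystallins are structural proteins of the lens. Melanin is made in melanosomes, in melanocytes that come from the neural crest and in the retinal pigment epithelium of the eye, with tyrosinase (Tyr) as the enzyme of the first step, Tyrp1 and Dct as later enzymes, and Pmel as the protein of the fibrils on which the pigment is laid down. AKR/J mice are albino because they carry the albino allele of Tyr, which disables the enzyme, and C57BL/6J mice are black. In the embryonic brain Dct is also made by dividing cells of the telencephalon that do not become pigment cells.

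A single library held most of the reads of several of these genes. The library AKR/J d15 replicate 2 was the highest of the 27 for 9 of the 10 genes and the second for Cryab. The 6 crystallins together reached 247 CPM there, and 1.04 to 10.7 CPM in the other 26 libraries. The 4 pigment cell genes together reached 18.6 CPM there, and 0.385 to 7.99 CPM elsewhere. The calls of these genes in the comparisons as fitted, where this library took part, are therefore given with and without it. The 3 AKR/J d12 libraries also stood apart. Their summed level of 15 genes of the fetal brain was 1846 to 2729 CPM, against 4187 to 7771 CPM in the other 24 libraries, and their erythroid genes summed to 35626 to 136190 CPM, against 622 to 19330 CPM. Their trophoblast and decidua genes summed to 23.5 to 506 CPM, against 0.0323 to 65.7 CPM, and their neural retina genes to 17.4 to 31.4 CPM, against 38.4 to 105 CPM. What these differences contribute to the AKR/J d12 values below was not tested. In whole brain RNA, fewer cells of a type and less RNA per cell cannot be told apart.

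**Figure D1:**
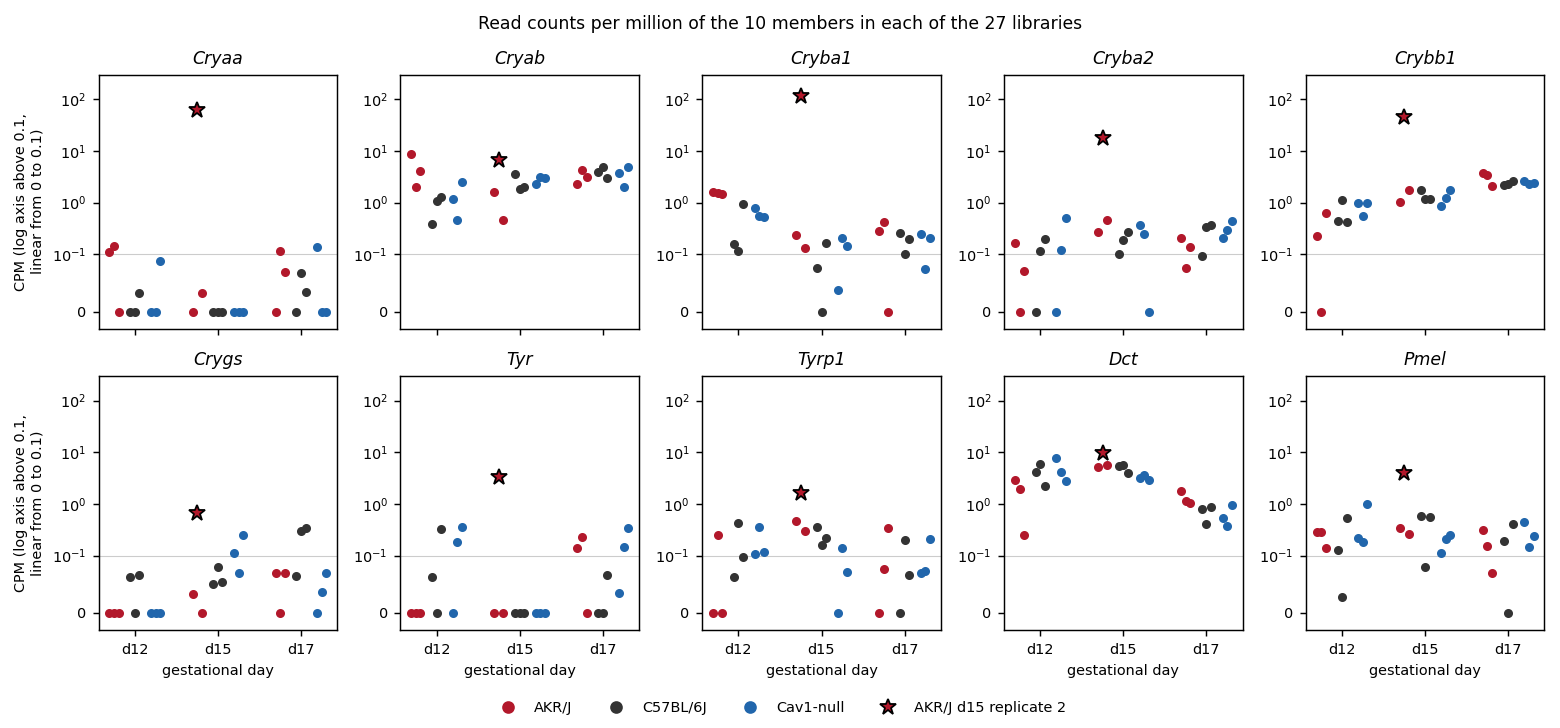
CPM of each of the 10 genes (panels) in each of the 27 libraries, by gestational day on the horizontal axis and by strain in color, on an axis that is linear from 0 to 0.1 CPM and logarithmic above. The star marks AKR/J d15 replicate 2, which reached 62.2 CPM of Cryaa and 113.5 CPM of Cryba1, while the AKR/J points of Tyr at d12 all lie at 0.

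Cryaa encodes alpha A crystallin, the alpha crystallin that is largely confined to the lens (chromosome 17, 31896781 to 31900707, plus strand, GRCm39). Its reads in AKR/J were 4, 4 and 0 on d12, then 0, 1831 and 1 on d15, then 0, 3 and 2 on d17. C57BL/6J had 0, 0 and 1 read on d12, 0 in each library on d15, and 0, 2 and 1 on d17, and Cav1-null had 0, 0 and 3 on d12, 0 in each library on d15, and 4, 0 and 0 on d17. The 1831 reads of the 1 library (62.2 CPM) made up 98.7% of all Cryaa reads of the series, and no other library had more than 0.141 CPM. Against the 1 read in the other 2 libraries of its group, the ratio of the CPM was 3724, with an exact 95% counting interval of 668 to 147160. Cryaa was below the filter on low counts in every comparison as fitted. With no filter it was called in the 5 comparisons listed with the processing alternatives, each of which holds this library. Without that library, the 8 AKR/J libraries held 14 Cryaa reads in 5 libraries, the 9 C57BL/6J libraries 4 reads in 3 and the 9 Cav1-null libraries 7 reads in 2.

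The reads that span exon junctions show which forms of Cryaa were present. In rodents a longer form of the protein, alpha A insert crystallin, is made by splicing in an extra coding exon between the first and second exons of the shorter form. This exon lies at chr17:31897423-31897491 (plus strand, GRCm39, 69 bases) and has the following sequence, in capitals as exon sequence, shown because reads from its end were counted.
Cryaa insert exon: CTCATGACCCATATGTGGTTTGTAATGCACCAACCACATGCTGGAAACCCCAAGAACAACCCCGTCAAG
The junctions into the next exon are shown with its first bases in capitals, without the insert first and then with it.
Cryaa without the insert: tcgggcatctctgagGTCCGATCTGACCGG
Cryaa with the insert: aacaaccccgtcaagGTCCGATCTGACCGG
AKR/J d15 replicate 2 had 423 reads across the junction without the insert and 59 across the junction with it. The insert form was thus 59 of 482 reads, or 12.2% (95% Wilson interval 9.61 to 15.5%, for counting error only). Of the other 26 libraries, AKR/J d15 replicate 3 had 1 read and Cav1-null d15 replicate 3 had 2 reads of the form without the insert, and the form with the insert had no read in any of them. The splice table leaves out junctions with multi-mapped reads or short overhangs, so that a 0 in it can stand for reads that were removed. Junctions with few reads in all samples were left out as a whole.

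Cryab encodes alpha B crystallin (chromosome 9, 50651859 to 50668567, plus strand). It had reads in all 27 libraries. AKR/J had it at 8.56, 2.01 and 4.06 CPM on d12, at 1.62, 6.76 and 0.464 CPM on d15, and at 2.25, 4.32 and 3.16 CPM on d17. C57BL/6J had it at 0.378, 1.08 and 1.28 CPM on d12, at 3.62, 1.83 and 1.99 CPM on d15, and at 3.88, 4.92 and 2.94 CPM on d17. Cav1-null had it at 1.18, 0.455 and 2.49 CPM on d12, at 2.23, 3.06 and 2.98 CPM on d15, and at 3.65, 1.995 and 4.82 CPM on d17. The C57BL/6J libraries of d12 lay below all libraries of d15 and d17 of that strain, while the AKR/J libraries of d12 held the highest value of the series. Of the 2 introns listed for Cryab in the splice table, the one at 50662752 to 50663476 belongs to Hspb2, a neighbor on the opposite strand. The other, between the first and second exons of the canonical transcript, had reads in all 27 libraries, with 68 in AKR/J d12 replicate 1 and 49 in AKR/J d15 replicate 2.

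Cryba1 encodes the beta A3 and beta A1 crystallins (chromosome 11, 77609441 to 77616120, minus strand). In AKR/J it had 57, 43 and 42 reads on d12, then 7, 3342 and 4 reads on d15, then 8, 11 and 0 reads on d17. C57BL/6J had 5, 4 and 28 reads on d12, then 3, 0 and 6, then 8, 3 and 6, and Cav1-null had 22, 18 and 18 reads on d12, then 1, 6 and 4, then 7, 2 and 6. On d12 the 3 AKR/J libraries (1.53 ± 0.0636 CPM, SD, n = 3) lay above all C57BL/6J libraries (0.396 ± 0.452 CPM, n = 3) and all Cav1-null libraries (0.621 ± 0.142 CPM, n = 3). On d15, AKR/J d15 replicate 2 had 113.5 CPM, while the highest of the other 8 d15 libraries had 0.236 CPM. Against the 11 reads of the other 2 libraries of its group the ratio of the CPM was 618 (exact 95% counting interval 345 to 1239).

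Cryba1 junction reads differed in kind between libraries. The junction from exon 3 to exon 4 of the canonical transcript and a junction from exon 3 to exon 5, which leaves out exon 4 and is in no annotated transcript, are shown here with the first bases of the downstream exon in capitals (minus strand, GRCm39, between 77610342 and 77613449).
Cryba1 exon 3 to exon 4: ggtggagtgtggcgcCTGGATTGGTTATGA
Cryba1 exon 3 to exon 5: ggtggagtgtggcgcAATCATAAAGAGTCT
AKR/J d15 replicate 2 had 759 reads of the first and 20 of the second, so that the junction without exon 4 was 2.57% of both (95% Wilson interval 1.67 to 3.93%). The 3 AKR/J d12 libraries together had 18 of 26 reads without exon 4, or 69.2% (50.01 to 83.5%), with 8 of them in replicate 1 and 10 in replicate 3. The 3 Cav1-null d12 libraries together had 4 of 17, or 23.5% (9.56 to 47.3%), and the 3 C57BL/6J d12 libraries had 0 of 5, which allows up to 60% by the limit of 3 reads. The intervals of the AKR/J d12 and d15 values do not overlap, but they cover counting error only, and reads within a library are not replicates.

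Cryba2 encodes beta A2 crystallin (chromosome 1, 74929093 to 74932302, minus strand). AKR/J had 6, 0 and 2 reads on d12, then 8, 525 and 14 on d15, then 6, 2 and 4 on d17, and no library of C57BL/6J or Cav1-null had more than 17 reads. The library with 525 reads (17.8 CPM) also held 137 and 124 junction reads of the 2 introns listed for Cryba2, against at most 5 and 10 elsewhere. Outside it, the group means ran from 0.0793 to 0.367 CPM, the latter over the other 2 libraries of AKR/J d15. Crygs encodes gamma S crystallin, a late product of lens fiber cells (chromosome 16, 22623953 to 22630327, minus strand). It was the rarest of the 6 crystallins in AKR/J d15 replicate 2, with 20 reads (0.679 CPM), against 1 and 0 in the other 2 libraries of that group. No Crygs read was found in the 3 AKR/J and the 3 Cav1-null libraries of d12, and the highest C57BL/6J library had 10 reads (0.334 CPM).

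Crybb1 encodes beta B1 crystallin, and outside the eye its RNA is known from immature microglia (chromosome 5, 112400811 to 112417965, plus strand). In AKR/J it had 8, 0 and 18 reads on d12, then 30, 1350 and 52 on d15, then 107, 91 and 59 on d17. C57BL/6J had 14, 39 and 13 reads on d12, then 68, 44 and 44, then 69, 67 and 77, and Cav1-null had 28, 18 and 33 on d12, then 23, 36 and 49, then 74, 62 and 69. Without the library with 1350 reads, all d17 libraries (2.05 to 3.70 CPM) lay above all d12 and d15 libraries (0 to 1.76 CPM). The summed level of 16 microglia genes was 122 to 216 CPM on d12, 116 to 208 CPM on d15 and 109 to 152 CPM on d17, with ranges that overlapped, and their part in the Crybb1 values was not tested.

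The splice table lists 1 intron of Crybb1, between the first exon of the canonical transcript, which is untranslated, and exon 2 (112403714 to 112405238). The bases around the junction are shown because AKR/J d15 replicate 2, with the most gene reads, had no read across this junction, with the first bases of exon 2 in capitals, which hold the start codon.
Crybb1 first exon to exon 2: tgtccaccaatacagCACCAGGAACCATGT
In the other 26 libraries it had 109 reads beside 1192 gene reads, or 9.14 per 100 gene reads, and 10 of these libraries, with 0 to 69 gene reads each, had 0 junction reads as well. In AKR/J d15 replicate 2 it had 0 reads beside 1350 gene reads, which allows up to 0.222 per 100 gene reads by the limit of 3 reads. Other first exons are annotated for Crybb1, and their junctions were not analysed here. Nor was it tested whether reads of this junction were removed from that library.

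**Figure D2:**
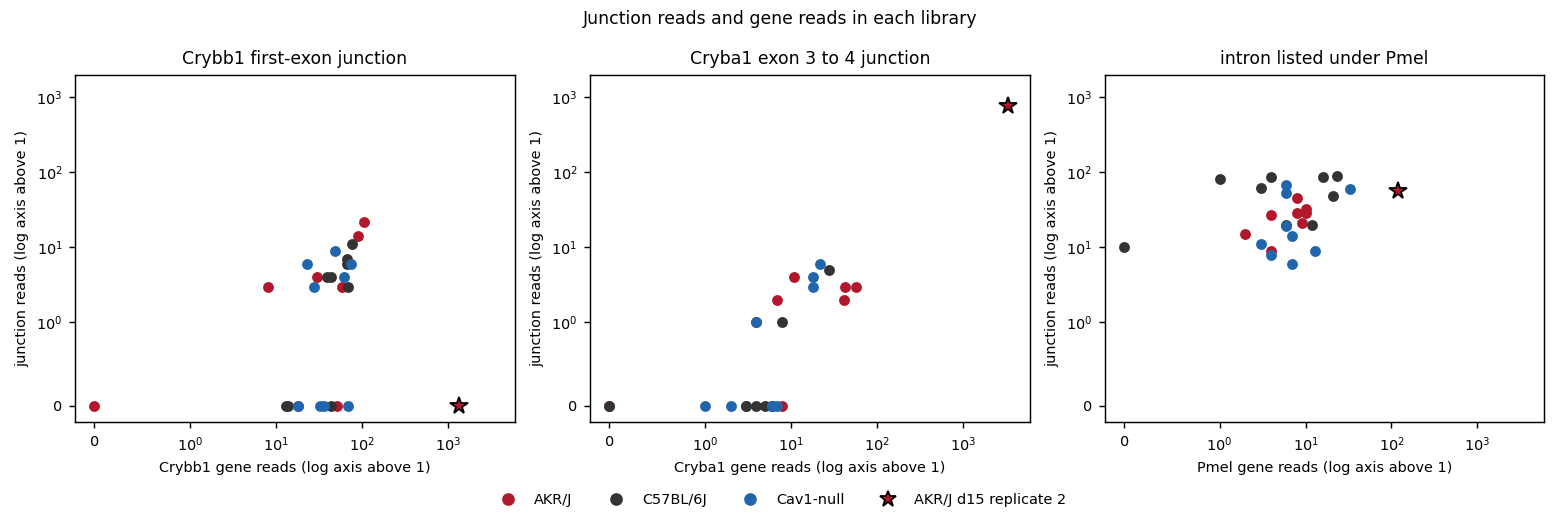
Junction reads on the vertical axis and gene reads on the horizontal axis in each of the 27 libraries, for the first-exon junction of Crybb1, the junction from exon 3 to exon 4 of Cryba1 and the intron listed under Pmel (both axes logarithmic above 1). AKR/J d15 replicate 2 (star) has 0 junction reads at 1350 gene reads of Crybb1 and 759 at 3342 gene reads of Cryba1, and the intron listed under Pmel has more reads than the gene in 24 of 27 libraries.

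The order of the crystallins by level per kilobase of canonical transcript in AKR/J d15 replicate 2 was Cryba1 (143.9 CPM per kilobase), Cryaa (49.6), Crybb1 (32.8), Cryba2 (24.8), Cryab (4.0001) and Crygs (0.776). The medians over the other 26 libraries had another order, with Cryab first (1.40), then Crybb1 (0.866), Cryba2 (0.265), Cryba1 (0.262), Crygs (0.0595) and Cryaa at 0. A list of 24 other lens genes summed to 217 CPM in AKR/J d15 replicate 2 and to 5.81 to 21.5 CPM in the other 26 libraries. Of the 24, 14 had their highest level there, and 11 were over 5-fold above all other libraries. Among them were the crystallins Cryga, Crygb, Crygc, Crygd, Cryge, Crygf, Crygn, Cryba4 and Crybb3 and Mip, the water channel of lens fibers, all named after their values were seen. Of the 24, 5 had 0 reads there (Crybb2, Lim2, Lgsn, Dnase2b and Lctl), and the highest other library had 4, 0, 2, 4 and 9 reads. Foxe3 and Lenep had 4 and 3 reads there, against 10 and 6 in the highest other library. These genes were also named after their values were seen. The 6 genes from Cryga to Crygf are closely similar copies, so that the split of reads between them is uncertain, and they had 170 to 896 reads in this library and at most 7 reads in any other. The lens fiber genes Bfsp1 and Bfsp2 were at 6.15 and 3.26 CPM there, 1.84-fold and 2.39-fold above the highest other library. Both genes, as well as the epithelial and neural retina genes, Rpe65, Rgr, Ttr and Trpm1 below, were likewise named after their values were seen.

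**Figure D3:**
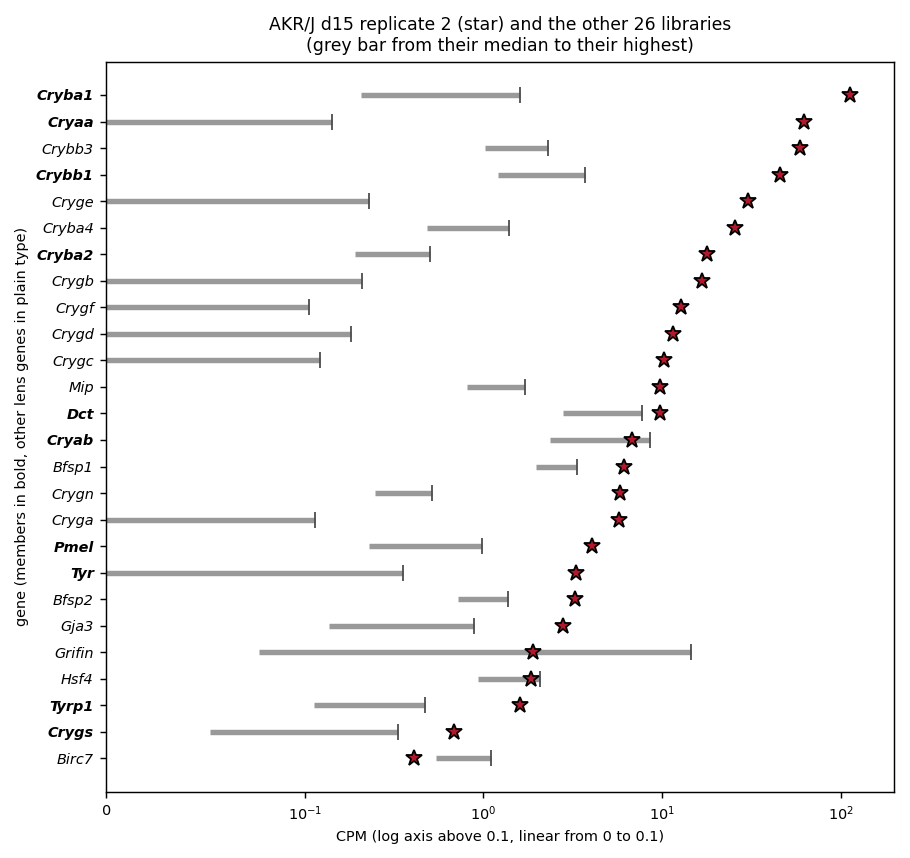
CPM of the 10 genes (bold) and of other lens genes with 10 or more reads in AKR/J d15 replicate 2, on an axis that is linear from 0 to 0.1 CPM and logarithmic above. The star is that library and the grey bar runs from the median to the highest of the other 26 libraries. Cryge, at 30.4 CPM, stands 133-fold above the highest other library, while Cryab, Grifin and Hsf4 lie inside the grey bar and Birc7 lies below it.

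Genes of other tissues were also counted in this library. Skeletal muscle genes (14 genes) summed to 205 CPM there, the highest of the series, against 19.6 to 103 CPM elsewhere. Genes of the surface epithelium (12 genes) summed to 91.6 CPM, the second highest, against 21.5 to 113 CPM elsewhere, with the corneal keratin Krt12 at 0, and 4 of the 12 were highest of all libraries there, 0 of them over 5-fold. These 4 were the basal keratins Krt5 and Krt14, the epithelial factor Trp63 and the desmosome gene Dsp, 1.32-fold, 1.86-fold, 1.37-fold and 1.19-fold above the next. Lor and Krtdap, genes of differentiated epidermis, were at 0.0740 and 0.151 of the highest other library. Lor lay below the median of the other 26 libraries (1.29 against 2.95 CPM) and Krtdap above it (4.25 against 0 CPM). The neural retina list (13 genes) summed to 78.8 CPM, the fourth highest, and 3 of the 13 were highest there, 0 of them over 5-fold. These were Atoh7, a factor of early retinal neurons, Rax and Prdm1, 3.03-fold, 1.82-fold and 1.09-fold above the highest other library. Pou4f2, Nrl, Rcvrn and Vsx1 lay below the median of the other 26 libraries. The photoreceptor gene Rbp3 was at 0, and its median in the other 26 was only 0.0269 CPM. The retinal pigment epithelium list (10 genes) summed to 333 CPM, against 24.8 to 739 CPM elsewhere, with most of the sum from Ttr, which is abundant in the choroid plexus. Rpe65 was at 0 there and had at most 4 reads in any other library, and Rgr was highest there, with 10 reads against at most 8. The fetal brain list summed to 4683 CPM, the rank of 23 among 27. Erythroid genes (3322 CPM), microglia genes (168 CPM) and trophoblast and decidua genes (0.408 CPM) were inside the range of the other libraries. The part of these genes in the values of the crystallins was not tested.

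Among the pigment cell genes, Tyr had reads in few libraries (chromosome 7, 87073979 to 87142720, minus strand). In AKR/J it had 0 reads in each library of d12, then 0, 97 and 0 on d15, then 4, 6 and 0 on d17. C57BL/6J had 2, 0 and 10 reads on d12, 0 in each library of d15, and 0, 0 and 2 on d17, and Cav1-null had 0, 6 and 12 on d12, 0 in each library of d15, and 1, 4 and 10 on d17. The 97 reads in AKR/J d15 replicate 2 (3.30 CPM) were at least 65.8-fold above the other 2 libraries of its group, taking 3 reads over both as the limit of a count of 0, and the exact 95% counting interval of the ratio, which also counts the error of the 97 reads, began at 52.5. Without this library, the albino strain had 10 Tyr reads in 2 of 8 libraries, C57BL/6J had 14 in 3 of 9 and Cav1-null had 33 in 5 of 9. Tyr was below the filter in every comparison as fitted. With no filter and with all 27 libraries in 1 model it was called in AKR/J against C57BL/6J on d15 (adjusted p = 0.0435 and 0.0326, edgeR) and in AKR/J from d12 to d15 (adjusted p = 0.0187 and 0.0262), where all reads on both sides were the 97 of AKR/J d15 replicate 2. With no filter it was also called in Cav1-null from d15 to d17 (adjusted p = 0.0428), from 0 reads to 1, 4 and 10.

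Tyrp1 (chromosome 4, 80752360 to 80769956, plus strand) had 0, 7 and 0 reads in AKR/J on d12, then 14, 47 and 9, then 0, 2 and 10. C57BL/6J had 2, 15 and 3 reads, then 14, 6 and 8, then 0, 6 and 2, and Cav1-null had 3, 12 and 4, then 0, 4 and 2, then 2, 2 and 6. The 3 strains overlapped over the days, and the 47 reads (1.60 CPM) in AKR/J d15 replicate 2 stood above all. Pmel (chromosome 10, 128540064 to 128556107, plus strand) had 10, 8 and 4 reads in AKR/J on d12, then 10, 119 and 8, then 9, 4 and 2. C57BL/6J had 4, 1 and 16 reads, then 23, 3 and 21, then 6, 0 and 12, and Cav1-null had 6, 6 and 33, then 3, 6 and 7, then 13, 4 and 7. The 119 reads (4.04 CPM) in AKR/J d15 replicate 2 were followed by the 33 reads (0.976 CPM) of Cav1-null d12 replicate 3. The intron that the splice table lists under Pmel spans 128539873 to 128540580 and is annotated in 12 transcripts of Cdk2, a neighbor on the opposite strand, and with 1013 reads over the series it exceeded the 345 reads of the whole Pmel gene. Pmel also shares 442 bases of its canonical exons with Dgka on the opposite strand, and since the handling of strand in the counting was not given in the sources used here, reads of Pmel and Dgka cannot be told apart in those bases. Crygs and Cryaa share 389 and 194 exon bases with a noncoding gene of the opposite strand each in the same way, and Cryab shares 122 and 106 with 2 such genes.

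Dct, dopachrome tautomerase (chromosome 14, 118250202 to 118289656, minus strand), was the most read pigment cell gene, with reads in all 27 libraries. In AKR/J it was at 2.88, 1.91 and 0.245 CPM on d12, at 5.15, 9.68 and 5.603 CPM on d15, and at 1.77, 1.14 and 1.04 CPM on d17. The C57BL/6J values were 4.16, 5.97 and 2.26 CPM on d12, 5.31, 5.53 and 4.01 CPM on d15, and 0.809, 0.404 and 0.868 CPM on d17. The Cav1-null values were 7.67, 4.16 and 2.72 CPM on d12, 3.20, 3.58 and 2.94 CPM on d15, and 0.521, 0.369 and 0.930 CPM on d17. Each d17 library lay below each d15 library of every strain. The group means ran, from high to low, from AKR/J d15 (6.81 ± 2.50 CPM, SD, n = 3, and 5.38 CPM over the other 2 libraries without replicate 2) through C57BL/6J d15 (4.95 ± 0.824), Cav1-null d12 (4.85 ± 2.55), C57BL/6J d12 (4.13 ± 1.85), Cav1-null d15 (3.24 ± 0.317), AKR/J d12 (1.68 ± 1.33), AKR/J d17 (1.31 ± 0.394) and C57BL/6J d17 (0.694 ± 0.252) to Cav1-null d17 (0.607 ± 0.290). The libraries of neighbors in this order overlapped, except for Cav1-null d15 and AKR/J d12, whose nearest libraries were at 2.94 and 2.88 CPM, and for AKR/J d17 and C57BL/6J d17, whose nearest were at 1.04 and 0.868 CPM. AKR/J d15 replicate 2 was 1.26-fold above the next library for Dct, far less than for the other pigment cell genes. Of 18 other genes of pigment cells, 4 had their highest level in this library, and 1, the melanocyte and retinal channel gene Trpm1, was over 5-fold above all other libraries (7.92 CPM, 5.62-fold).

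Short sequence motifs were searched around the start sites of the members. The M-box, searched as TCATGTG on both strands, holds an E-box to which the factor Mitf binds, and Mitf is the main regulator of pigment genes. It was found between 250 bases before and 50 bases after the canonical start in 3 of the 4 pigment cell genes and in 0 of the 6 crystallins, and in 3.35% of 21584 promoters of protein-coding genes. The half-site of Maf factors, which switch on crystallin genes, was searched as TGCTGAC on both strands. It was found in 3 of the 6 crystallins and in 0 of the 4 pigment cell genes, and in 4.09% of all promoters. The windows are shown 5′ to 3′ on the strand of the gene, with the motif in capitals.
Tyr, chr7:87142724-87142753: gaaaaagttagTCATGTGctttgcagaaga
Tyrp1, chr4:80752392-80752421: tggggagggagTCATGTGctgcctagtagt
Dct, chr14:118289791-118289820: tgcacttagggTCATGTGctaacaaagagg
Cryaa, chr17:31896786-31896815: agcattccagcTGCTGACggtgcagcctct
Cryba1, chr11:77616158-77616187: ggaaaagagagTGCTGACagagccgctggc
Crybb1, chr5:112403591-112403620: ccatccaggttTGCTGACccagctgcctct
The M-box begins 22, 39 and 212 bases before the start in Tyr, Tyrp1 and Dct. The Maf half-site begins 56 and 78 bases before the start in Cryba1 and Crybb1 and at base 17 of the Cryaa transcript. Pmel, Cryab, Cryba2 and Crygs held neither motif in this window. These matches of letters are a description of the sequence, and no binding was measured.

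The first question of the design was how AKR/J and Cav1-null differed from C57BL/6J. Over the 3 days combined, AKR/J against C57BL/6J called 1 of the 7 members that passed the filter, Cryba1, at an adjusted p under 0.05 in the quasi-likelihood test of edgeR with Benjamini-Hochberg adjustment, while 47.9% of all genes tested were called. The log2 difference of Cryba1 was 3.72, higher in AKR/J (SE 1.11, adjusted p = 0.0106). Without AKR/J d15 replicate 2 the difference was 1.24 (SE 0.597, adjusted p = 0.104), and without AKR/J d17 replicate 2 it was 3.53 (adjusted p = 0.0509), so that each of these libraries was needed for the call. Cryba1 reached the level of the filter (0.333 CPM in at least 3 libraries) in 5 of 9 AKR/J libraries and in 1 of 9 of C57BL/6J, and thus was tested through the strain where it was high. Without AKR/J d12 replicate 2 or AKR/J d15 replicate 3, Cryab was called as well (1.001, adjusted p = 0.0474, and 1.08, adjusted p = 0.0236), against 0.86 (adjusted p = 0.103) with all libraries and 0.43 (adjusted p = 0.347) without AKR/J d15 replicate 2. The median log2 fold change of the 7 members was 0.86, and 0.02 without AKR/J d15 replicate 2, beside 0.01 for all genes with all libraries. AKR/J against Cav1-null likewise called Cryba1 alone (log2 fold change 3.39, SE 1.07, adjusted p = 0.0223), beside 30.4% of all genes. That call was lost without AKR/J d15 replicate 2 (0.86, adjusted p = 0.193), AKR/J d17 replicate 1 (3.33, adjusted p = 0.0595) or AKR/J d17 replicate 2 (3.15, adjusted p = 0.09996).

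Cav1-null against C57BL/6J called 0 of 7 members over the 3 days combined, beside 45.1% of all genes, with 0 members at an unadjusted p under 0.05 in edgeR and 0 called by DESeq2. These comparisons average the days, and they were run again without d12, a choice made after the AKR/J d12 libraries had been seen. The AKR/J difference from C57BL/6J then called 0 members, beside 38.4% of all genes (35.1% without AKR/J d15 replicate 2), with 2 members (Dct and Crybb1) at an unadjusted p under 0.05 and Cryba1 below the filter. Cryab then turned in direction, to -0.12 (adjusted p = 0.867), and to -0.85 (adjusted p = 0.0608) when AKR/J d15 replicate 2 was left out as well. Dct was then higher in AKR/J than in Cav1-null, by a log2 fold change of 1.08 (SE 0.237, adjusted p = 0.00436), and by 0.92 (adjusted p = 0.00587) when AKR/J d15 replicate 2 was left out as well, beside 23.8% and 25.1% of all genes called. Cav1-null against C57BL/6J called 0 members, beside 46.7% of all genes, with 0 at an unadjusted p under 0.05. DESeq2 was not run without d12. Over all days the Dct difference between AKR/J and Cav1-null was 0.35 (SE 0.33, adjusted p = 0.454).

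By day, AKR/J against C57BL/6J on d12 called 2 of the 4 members that passed the filter, beside 28.6% of all genes, and both were higher in AKR/J. Cryab differed by a log2 fold change of 2.99 (SE 0.723, adjusted p = 0.0201) and Cryba1 by 2.45 (SE 0.755, adjusted p = 0.0415). Cryba1 reached the level of the filter in 3 AKR/J libraries and in 1 of C57BL/6J, so that it was tested through the group where it was high, while Cryab reached it in all 6. Both calls were lost without AKR/J d12 replicate 1 (2.17 and 2.29), AKR/J d12 replicate 3 (3.07 and 2.37), C57BL/6J d12 replicate 1 (2.60 and 2.06) or C57BL/6J d12 replicate 2 (3.16 and 2.001), with the direction unchanged in these 4 fits. Crybb1 (-0.65) and Dct (-0.86) did not pass. The other lens gene called on d12 was Grifin, a galectin-related protein of the lens, which differed by 6.28 (SE 0.96, adjusted p = 0.0115), with 274, 138 and 417 reads in AKR/J and 4, 0 and 12 in C57BL/6J. Grifin reached the level of the filter in 3 libraries of AKR/J and in 1 of C57BL/6J, so that it too was tested through the group where it was high. The 24 other lens genes summed to 14.8, 13.8 and 21.5 CPM in the AKR/J d12 libraries, against 5.81 to 10.3 CPM in the libraries other than these and AKR/J d15 replicate 2, and Grifin made up 7.67, 4.87 and 14.6 CPM of the sums. On d12 the sum of the surface epithelium genes was 63.1 to 64.1 CPM for AKR/J, while the C57BL/6J sums ran from 27.9 to 49.96 CPM, with 4 of 10 called, 3 higher and 1 lower in AKR/J. The part of these genes in the Cryab and Cryba1 values was not tested.

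On d15, AKR/J against C57BL/6J called 0 of 5 members, beside 41.1% of all genes, with 1 member (Crybb1) at an unadjusted p under 0.05 in edgeR and 0 called by DESeq2, which gave Crybb1 no adjusted p. Crybb1 differed by a log2 fold change of 3.41 (SE 1.36, adjusted p = 0.0828), and by -0.12 (SE 0.35, adjusted p = 0.813) without AKR/J d15 replicate 2. Leaving out AKR/J d15 replicate 1 or replicate 3 instead gave 3.90 (adjusted p = 0.0425) and 3.87 (adjusted p = 0.0451). Dct differed by 0.30 (SE 0.278, adjusted p = 0.431) and by -0.02 without that library. On d17, 0 of 3 members were called, beside 0.742% of all genes, with 0 at an unadjusted p under 0.05 and 0 called by DESeq2. The d17 log2 fold changes were 0.88 (SE 0.416) for Dct, 0.36 for Crybb1 and -0.29 for Cryab.

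Cav1-null differed from C57BL/6J in 1 member on 1 day. On d15, 1 of 3 members was called, beside 58.6% of all genes. This was Dct, which was lower in Cav1-null (log2 fold change -0.79, SE 0.194, adjusted p = 0.00538). The 3 Cav1-null libraries (2.94 to 3.58 CPM) lay below the 3 C57BL/6J libraries (4.01 to 5.53 CPM), and the call held without each of the 6 libraries in turn. Of the 15 genes of the fetal brain list, 15 were called in this comparison, 13 lower and 2 higher in Cav1-null, with a median log2 fold change of -1.02, and their part in the Dct value was not tested. The Dct call was lost when all 27 libraries shared 1 model (-0.83, adjusted p = 0.236). On d12, 0 of 4 members were called, beside 0.0% of all genes, with 0 members and 4309 genes at an unadjusted p under 0.05 in edgeR and with 0 members and 2027 genes called by DESeq2, which gave 3 members no adjusted p. On d17, 0 of 3 members were called, beside 0.0491% of all genes, with 0 at an unadjusted p under 0.05 and 0 by DESeq2. Dct was at log2 fold changes of 0.16 (SE 0.491) on d12 and -0.23 (SE 0.495) on d17.

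The second question of the design was how each strain changed between the days. Dct fell from d15 to d17 in all 3 strains. The log2 fold change was -2.32 in AKR/J (SE 0.326, adjusted p = 0.00251), -2.95 in C57BL/6J (SE 0.352, adjusted p = 0.00571) and -2.41 in Cav1-null (SE 0.335, adjusted p = 0.000163). Without AKR/J d15 replicate 2 the fall in AKR/J was -2.002 (SE 0.274, adjusted p = 0.00147), and the calls in the 3 strains held under all alternatives run, with log2 fold changes from -2.002 to -3.14. In the same interval 4 of 15 genes of the fetal brain list were called lower in AKR/J (6 of 15 without AKR/J d15 replicate 2), 6 of 15 in C57BL/6J and 11 of 15 in Cav1-null, with 1, 1 and 2 called higher. Among them Eomes fell by 2.29 on the log2 scale in C57BL/6J and by 1.52 in Cav1-null, and the part of these genes in the fall of Dct was not tested. Whether the fall differed in size between the strains was not tested. Dct was the only member called in this interval with all libraries in AKR/J (1 of 4, beside 22.1% of all genes) and in C57BL/6J (1 of 4, beside 13.0%). In Cav1-null, Crybb1 was called as well, with a rise of 0.90 (SE 0.304, adjusted p = 0.0412), which made 2 of 3 members, beside 27.3% of all genes. The Crybb1 call was lost without any 1 of Cav1-null d15 replicates 1 and 2 or the 3 d17 libraries (0.68 to 0.95).

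Crybb1 depended on 1 library in AKR/J. From d15 to d17 its log2 fold change was -2.33 (SE 1.21, adjusted p = 0.202) with AKR/J d15 replicate 2 and 1.18 (SE 0.362, adjusted p = 0.0421) without it. In C57BL/6J the change was 0.66 (SE 0.258, adjusted p = 0.122), from 1.35 ± 0.310 to 2.35 ± 0.189 CPM (SD, n = 3 each), with all d17 libraries above all d15 libraries. Cryab in AKR/J also passed without that library, with a rise of 1.67 (SE 0.487, adjusted p = 0.0353), against 0.20 (SE 0.749, adjusted p = 0.874) with it. Without that library 4802 of 20569 genes were called in AKR/J from d15 to d17. In C57BL/6J and Cav1-null the Cryab changes over this interval were 0.52 (SE 0.327) and 0.34 (SE 0.293) and did not pass.

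From d12 to d15, AKR/J called 1 of 4 members, beside 28.9% of all genes. This was Crybb1, with a rise of 5.18 (SE 1.68, adjusted p = 0.0495), which without AKR/J d15 replicate 2 was 1.67 (SE 1.17, adjusted p = 0.340). It reached the level of the filter in 3 libraries of d15 and in 1 of d12, and thus was tested through the day where it was high. It also lost its call without each of AKR/J d12 replicates 1, 2 and 3 (5.09, 4.54 and 6.49) and AKR/J d15 replicate 3 (5.72). Without AKR/J d12 replicate 1, Dct rose by 2.47 (adjusted p = 0.0416), against 1.51 (SE 0.704, adjusted p = 0.143) with all libraries and 1.22 (adjusted p = 0.293) without AKR/J d15 replicate 2. Cryba1 reversed with the library, from 4.08 (SE 1.94, adjusted p = 0.151) with it to a fall of -3.49 (SE 0.640, adjusted p = 0.0119) without it, where it was likewise tested only through d12. The fit without AKR/J d15 replicate 2 called 4506 of 20748 genes. Cav1-null called 1 of 4 members, beside 23.4% of all genes, with a fall of Cryba1 of -2.23 (SE 0.597, adjusted p = 0.0276), from 0.621 ± 0.142 to 0.129 ± 0.0854 CPM (SD, n = 3 each). It reached the level of the filter in 3 libraries of d12 and 0 of d15, so that it was tested only through the day where it was high. The libraries of the 2 days did not overlap, but the call was lost without any 1 of Cav1-null d12 replicates 1 and 2 and d15 replicates 1, 2 and 3 (-1.82 to -2.73). Without Cav1-null d12 replicate 3, a rise of Cryab (1.72, adjusted p = 0.00219) and a fall of Dct (-0.92, adjusted p = 0.00769) were called as well, against 1.01 and -0.61 with all libraries. C57BL/6J called 0 of 4, beside 14.9% of all genes, with 1 member (Cryab, 1.48, SE 0.484, adjusted p = 0.0756) at an unadjusted p under 0.05 in edgeR and that 1 called by DESeq2. Without C57BL/6J d12 replicate 2, Crybb1 was called (1.71, adjusted p = 0.0204), against 1.06 (adjusted p = 0.146) with all libraries. Cryba1 did not pass the filter in that comparison, and its C57BL/6J level on d12 rested on 28 reads of replicate 3.

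**Figure D4:**
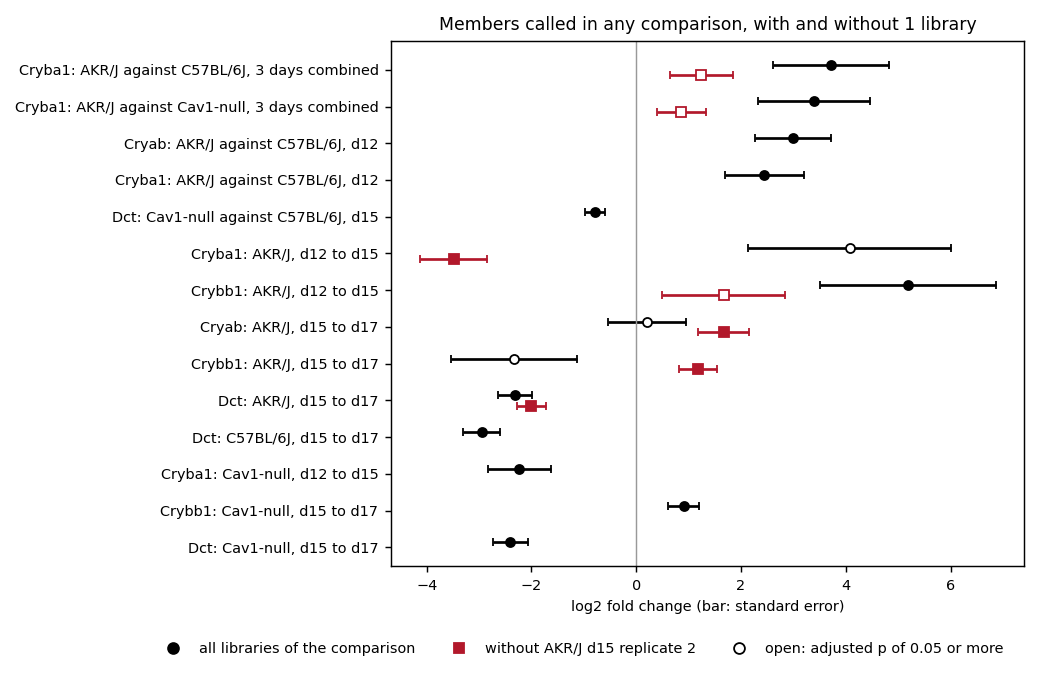
Log2 fold changes (horizontal axis, bars are standard errors) of each member called in any comparison, with all libraries of the comparison (black circles) and without AKR/J d15 replicate 2 (red squares, where that library took part). Filled points have an adjusted p under 0.05. Cryba1 from d12 to d15 and Crybb1 from d15 to d17 in AKR/J change sign with the library, and Dct from d15 to d17 lies between -2.95 and -2.002 in the 3 strains.

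**Figure D5:**
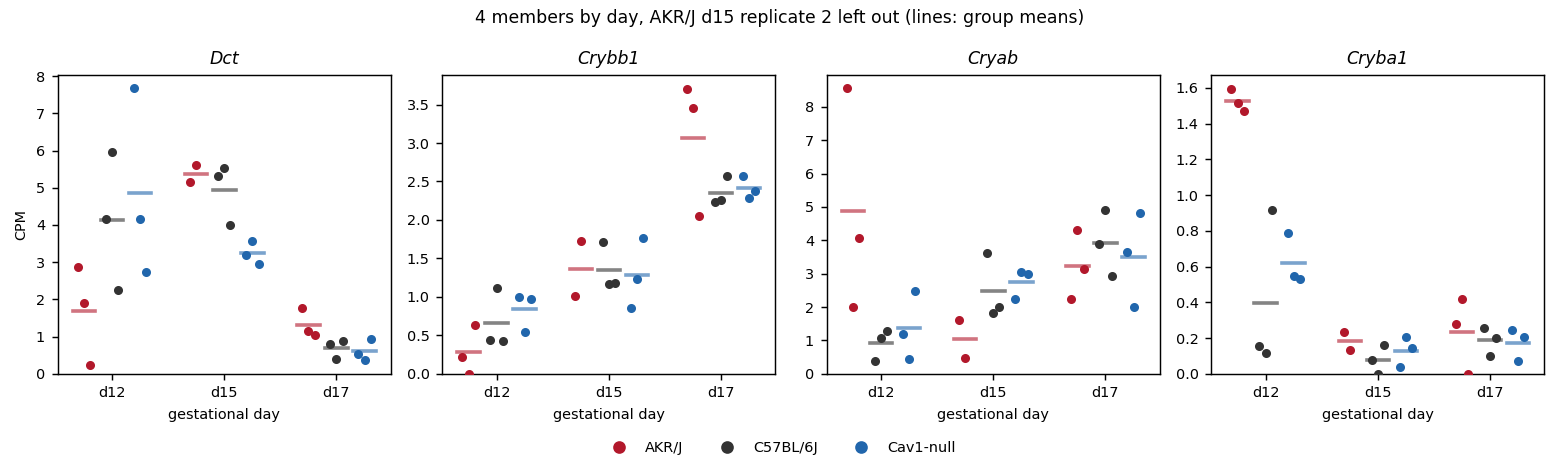
CPM of Dct, Crybb1, Cryab and Cryba1 in 26 libraries by gestational day and strain (points) with group means (lines), AKR/J d15 replicate 2 left out. By group mean, Dct is lowest on d17, Crybb1 is highest on d17 and Cryba1 is highest on d12 in all 3 strains.

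The wider lists show how far other genes of the same cell types moved. Of 24 other lens genes, AKR/J against C57BL/6J over the 3 days called 4 of 10 that passed the filter, beside 47.9% of all genes. All 4 were higher in AKR/J, and the median log2 fold change of the 10 was 0.95. Without AKR/J d15 replicate 2 it called 2 of 10, with a median of 0.44, beside 10151 of 23345 genes called. Grifin (3.78) and Cryba4, a beta crystallin (2.29), differed most, and without that library Grifin was still called (2.93, adjusted p = 0.0033), tested through the d12 reads given above, and Cryba4 was not (0.80, adjusted p = 0.220). AKR/J against Cav1-null called 3 of 10, all higher, beside 30.4% of all genes, and without that library 2 of 10, beside 6224 of 23684 genes. Cav1-null against C57BL/6J called 2 of 9, beside 45.1% of all genes. These were Birc7, an inhibitor of apoptosis, higher (0.81) and Hsf4, the heat shock factor of the lens, lower (-0.78). Of 18 other pigment cell genes, AKR/J against C57BL/6J called 3 of 15, 1 higher and 2 lower, the largest being Sox10, a factor of neural crest and oligodendrocytes (-1.21), and the receptor Kit (-0.80). Without AKR/J d15 replicate 2 it called 4 of 16, 1 higher and 3 lower, beside 10151 of 23345 genes. Sox10 was then at -1.43 and Kit at -0.70. Cav1-null against C57BL/6J called 4 of 15, 2 in each direction, with Kit lower (-0.77) and the melanosome exchanger Slc24a5 higher (0.61). Several of these genes are also used by other cells of the brain, as Kit and Sox10 are. Between days, Sox10 rose from d12 to d15 in AKR/J (2.83, and 2.02 with adjusted p = 0.0599 without AKR/J d15 replicate 2) and C57BL/6J (1.91) and from d15 to d17 in Cav1-null (1.01).

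The genes whose levels were most like those of each member, by Pearson's r of log2(CPM + 0.5) after each group mean was taken off, were found over the 27 libraries for the 5 members with a mean of at least 1 CPM. These are descriptions, and all points share their library's depth. Cryaa, Cryba1 and Cryge reached that mean only through AKR/J d15 replicate 2, so that each r with one of them describes the peak of that library. Cryaa was most like Cryge (r = 0.986), Cryba1 (0.976) and Crybb3 (0.942). Cryba1 was most like Cryge (0.983), Cryaa (0.976) and Crybb3 (0.918), and Crybb1 most like Cryge (0.936), Cryaa (0.921) and Cryba1 (0.915). Cryab was most like Mgp (0.855), S100a1 (0.854) and Dcn (0.833), and Dct most like Emx2, a factor of the dorsal telencephalon (0.894), Shisa2 (0.829) and Eomes, a factor of intermediate progenitors of the cortex (0.827). Over the 26 libraries without AKR/J d15 replicate 2, Dct had Emx2 (0.941), Eomes (0.903) and Emx1 (0.882) as its nearest, while none of the 3 genes first found for Cryaa, Cryba1 or Crybb1 was among their nearest 3.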

How the data were processed

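Per the labels and the methods, the authors trimmed reads, mapped them with STAR to GRCm39, and counted reads per Ensembl gene, and the deposited unit is the raw count. FastQC, cutadapt, fastp, edgeR and bedtools are also named in the submitters' processing notes. The deposited splice table gives counts of reads across introns from STAR mapping in 2 passes. The authors removed from it junctions with multi-mapped reads or overhangs under 20 bases, and those with under 10 reads in all samples. Multi-mapped reads and strand in counting are not given in the sources used here. All columns were mapped to a sample. CPM were computed from the total counts (26363697 to 39759702 per library).

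Each of 15 comparisons was fitted on all genes that passed edgeR's filter on low counts, with TMM scaling, by edgeR's quasi-likelihood test (edgeR 4.0.16, R 4.3.3), and p-values were adjusted by Benjamini-Hochberg over all genes tested. A gene was called at an adjusted p under 0.05. Comparisons of single days or intervals used 6 libraries, and those over the 3 days 18 with day as a term. The scripts were tested on simulated counts. Alternatives were DESeq2 1.42.0, RLE scaling, no filter, 1 model over all 27 libraries, the replicate number as a block, and fits that left out 1 library at a time. The settings that leave out all d12 libraries were added after the data had been seen. The 10 genes and the 10 lists of other genes (143 of 144 symbols found) were chosen with earlier results of these data known. All members were named, and of each list up to 2 called genes per comparison, those with the largest log2 fold changes. Genes most like a member were taken at a mean of at least 1 CPM (16441 genes), with a pseudocount of 0.5. Junction and promoter sequences were read from the GRCm39 genome with GENCODE annotation, and none from protein tables. P-values measure only the spread between the libraries of a group, whose litters are not stated. Intervals of shares and ratios cover counting error only, and a count of 0 was taken to allow 3 reads. The level of 1 gene of the lists is not reported here by name.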

Additional observations from a re-analysis of the deposited data

Results flagged for a closer look

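Junction reads lie outside the count table that the tests used, and 6 junctions of the crystallins had at least 10 reads in AKR/J d15 replicate 2 and at least 5-fold more than any C57BL/6J library. The Cryaa junctions without and with the insert exon had 423 and 59 reads, against 0 in every C57BL/6J library. The Cryba1 junctions with and without exon 4 had 759 and 20 reads, against at most 5 and 1 in a C57BL/6J library. The junctions of Cryba2 had 137 and 124 reads, against at most 5 and 4. The 2 introns listed for Cryab, with 49 and 8 reads against at most 30 and 3, were also above every C57BL/6J library, but by less than 5-fold. The gene counts of Cryaa, Cryba1 and Cryba2 were highest in the same library, so the 6 junctions are not a separate measurement of it.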

How the results depend on the processing

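The fall of Dct from d15 to d17 was called in all 3 strains under every alternative run. Among the other alternatives the count of called members stayed within 1.5 times of the reported one in 60 of 80 cases. These 60 include fits where both counts were 0. A like count can also hold other genes, as with Dct in place of Cryba1 for AKR/J against Cav1-null without d12. Without the filter on low counts, 3 members were called for AKR/J against C57BL/6J over 3 days (reported 1), 2 for AKR/J against Cav1-null (reported 1), 5 for AKR/J against C57BL/6J on d15 (reported 0), and 5 in AKR/J both from d12 to d15 and from d15 to d17 (reported 1 each). Of all genes, these fits called 10011 of 40790, 6868 of 41099, 6891 of 35682, 6058 of 36961 and 4552 of 35975, in that order. Cryaa was called in these 5 comparisons (adjusted p = 0.00532, 0.0111, 0.0231, 0.00401 and 0.00852), each with AKR/J d15 replicate 2, and a fit with neither the filter nor that library was not run. With all 27 libraries in 1 model the count was 1 for AKR/J against C57BL/6J on d12, 4 on d15, 0 for Cav1-null against C57BL/6J on d15, 6 and 3 for the early and late interval in AKR/J, and 0 and 1 for those in Cav1-null. Of the 23307 genes tested, that model called 10960, 5233, 8185, 9568, 2366, 3056 and 829 in these comparisons, in that order. DESeq2 called 0 for AKR/J against Cav1-null (beside 7728 of 22705 genes) and 0 from d12 to d15 in AKR/J (6840 of 19935). In C57BL/6J it called 1 from d12 to d15 (4827 of 19154). In the first of these it gave 4 members no adjusted p and in the second 2, Cryba1 and Crybb1. For AKR/J against C57BL/6J over 3 days it called Cryab in place of Cryba1, which it gave no adjusted p. Leaving out d12, with or without AKR/J d15 replicate 2, gave 0 for AKR/J against C57BL/6J. The cause of these shifts was not tested.

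The deviations of same-numbered libraries from their group means had an r from -0.48 to 0.40, and in 0 of 12 comparisons were all pairs over 0.1. For AKR/J against C57BL/6J on d12 and d17 and for Cav1-null against C57BL/6J on d12, 2 of the 3 pairs were over 0.1. These values cannot exclude that same-numbered libraries shared handling, since deviations from means of 3 libraries depend on each other. The reported fits did not pair them. With the replicate block, 0 members were called for AKR/J against Cav1-null over 3 days, beside 6434 of 22705 genes. From d12 to d15 it called 0 in AKR/J (beside 4241 of 19935 genes) and 0 in Cav1-null (3398 of 19934). The other counts stayed within 1.5 times.

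With each library left out in turn, the count ran from 0 to 2 for AKR/J against C57BL/6J over 3 days, on d12 and on d15, from 0 to 1 for AKR/J against Cav1-null, from 1 to 2 for Cav1-null against C57BL/6J on d15, from 0 to 2 and from 1 to 3 in AKR/J for the early and late interval, from 0 to 1 in C57BL/6J for the early interval, and from 0 to 3 and from 1 to 2 in Cav1-null. Cryba1 in AKR/J from d12 to d15 ran from -3.49 to 4.67 and Crybb1 from d15 to d17 from -2.88 to 1.18, and both turned only without AKR/J d15 replicate 2, though with the replicate block Cryba1 was at -0.85 (adjusted p = 0.819). Cryba1, Cryba2, Tyrp1 and Pmel entered some fits only when a library was left out, and their calls there rest on the values that let them pass. Of the genes most like a member, 9 of 15 were shared with a pseudocount of 0.1 and 3 of 15 without AKR/J d15 replicate 2. Outside that library Cryaa, Crygs and Tyr had at most 4, 10 and 12 reads in any library, which limits what could be compared between the strains.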
